A study of Rattus norvegicus with 16 samples.

Results

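Platelets are small cell fragments without a nucleus, shed by megakaryocytes of the bone marrow, and they carry mRNA from the megakaryocyte. They hold to exposed collagen and von Willebrand factor in a damaged vessel through surface glycoproteins, clump through a fibrinogen-binding integrin and release chemokines from granules. Cartilage itself has no blood vessels, whereas the bone marrow beneath it holds megakaryocytes. The 8 genes described here code for these surface receptors (Gp5, Gp9, Gp1ba, Gp1bb, Gp6 and Itga2b) and granule chemokines (Pf4 and Ppbp). They were taken by symbol from an expression table of 23552 genes in rat knee cartilage, and all 8 were found and passed the filter on low values. They were chosen from the osteoarthritic against healthy comparison in part, since Gp5 was known to be among the genes called in it. The values of that comparison are therefore given as a description.

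RNA was sequenced in 16 libraries, 4 in each of 4 groups, and every library was labelled as knee cartilage of rats aged 10 weeks. The coacervate-treated group was osteoarthritic cartilage that had received a coacervate (a polymer-rich liquid phase that separates from water), cells and a drug. The HA-treated group was osteoarthritic cartilage that had received hyaluronic acid (HA), a polysaccharide of joint fluid, with cells and a drug. The osteoarthritic group had no treatment in its sample titles and is named PBS in its library names. The healthy group is named Sham in its library names, so neither group can be taken as untouched. The labels give no strain, no way of inducing osteoarthritis, no cell type, no drug and no dose, and do not say whether replicates were separate animals. The p-values therefore measure the spread between these libraries, which may be technical.

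Total counts were 36988722 to 50725189 per library. All 9 cartilage cell markers examined were detected in every library, with a summed level of 1964 to 4847 normalised CPM (counts divided by each library's TMM-adjusted total). Markers of other cells were also present, with 5481 to 21233 CPM for 10 neutrophil genes, 4973 to 7931 CPM for 7 red cell precursor genes and 3207 to 18140 CPM for 5 skeletal muscle genes. Osteoarthritic replicates 2 and 3 stood apart. Haemoglobin genes took 20.6% and 19.99% of their counts, against 9.57% to 15.6% in the other 14 libraries. Short genes were also high in them: among 9429 genes with a length estimate, the median level of the 2358 shortest lay 0.93 and 0.80 above that of the 2358 longest (log2 scale, centred on each gene's mean), against -0.35 to 0.14 elsewhere. Some of the results that rest on these libraries are given with and without them, and the others only with them. The 8 genes together took 0.0665% to 0.151% of all counts.

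Promoter sequence is shown for the 3 genes whose osteoarthritic libraries lay apart from the healthy ones (Gp5, Gp1ba and Itga2b) and, for contrast, for a chemokine gene (Ppbp). Each is the 250 bases before the gene's start in RefSeq (build GRCr8), read along the gene's own strand. Capitals mark 2 kinds of motif, searched on both strands. The GATA motif was read as AGATAA and as TGATAA, which appear on the opposite strand as TTATCT and as TTATCA. The ETS motif was read as AGGAAG and as CGGAAG, which appear on the opposite strand as CTTCCT and as CTTCCG, and no matches of the different motifs overlapped. GATA and ETS proteins are families of transcription factors active in megakaryocytes.
Gp5, chr11:83948257-83948506, plus strand: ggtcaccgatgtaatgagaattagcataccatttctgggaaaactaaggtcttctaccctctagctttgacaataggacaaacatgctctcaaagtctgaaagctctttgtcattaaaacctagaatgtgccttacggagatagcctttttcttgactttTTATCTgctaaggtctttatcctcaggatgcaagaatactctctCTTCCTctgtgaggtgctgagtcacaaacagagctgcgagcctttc
Gp1ba, chr10:55851309-55851558, plus strand: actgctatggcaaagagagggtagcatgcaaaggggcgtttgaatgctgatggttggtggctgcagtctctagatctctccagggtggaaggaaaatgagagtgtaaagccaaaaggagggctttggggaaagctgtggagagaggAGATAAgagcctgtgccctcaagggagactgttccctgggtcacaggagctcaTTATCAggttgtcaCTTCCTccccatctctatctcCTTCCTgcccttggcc
Itga2b, chr10:87925834-87926083, minus strand: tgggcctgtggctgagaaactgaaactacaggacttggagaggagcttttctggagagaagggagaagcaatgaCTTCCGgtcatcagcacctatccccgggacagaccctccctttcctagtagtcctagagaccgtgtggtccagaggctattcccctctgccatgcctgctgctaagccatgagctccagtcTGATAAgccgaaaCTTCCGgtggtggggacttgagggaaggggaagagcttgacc
Ppbp, chr14:17587300-17587549, minus strand: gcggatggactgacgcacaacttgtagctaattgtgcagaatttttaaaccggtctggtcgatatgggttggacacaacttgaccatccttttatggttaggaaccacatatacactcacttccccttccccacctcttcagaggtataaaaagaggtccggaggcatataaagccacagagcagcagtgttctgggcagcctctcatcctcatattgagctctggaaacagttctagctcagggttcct

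A sequence was matched for 7 of the 8 genes, Pf4 being the other. Both motifs occurred in the windows of Gp5, Gp1ba, Itga2b and Gp6, 4 of 7, against 5.89% of 33469 promoter windows of that length. The GATA letters alone occurred in the same 4 of 7, against 16.9% of all windows, and the ETS letters in 6 of 7, against 39.4%. The pair was not particular to Gp5, Gp1ba and Itga2b, since Gp6 held it too. In Itga2b the GATA match began 55 bases before the start and the nearest ETS match 42 bases before it. In Gp5 these positions were 90 and 46 bases. The Ppbp window held neither set of letters, and a match or its absence says nothing about binding in these samples.

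Compared per length, the granule chemokines were the most abundant. The median over the 16 libraries was 353 FPKM (fragments scaled to transcript length and library size) for Pf4, 277 for Ppbp, 88.8 for Itga2b, 26.2 for Gp1ba, 17.4 for Gp6, 15.5 for Gp5, 14.4 for Gp9 and 4.61 for Gp1bb. The order of the first 4 held in every library, with Pf4 above Ppbp, Ppbp above Itga2b and Itga2b above Gp1ba in 16 of 16. Gp1ba exceeded Gp6 in 14 of 16 libraries and Gp6 exceeded Gp5 in 13. Gp5 and Gp9 could not be ordered, since Gp5 was the higher in 8 of 16. The order takes the Gp5 row alone. A second row annotated as glycoprotein V, described below, had a mean of 16.3 FPKM, against 14.8 for Gp5. The place of Gp1bb is uncertain too, since its count could not be separated from that of a neighbour (below). Pf4 and Ppbp are neighbours on chromosome 14, 2695 bases apart on the minus strand (Pf4 at 18848549 to 18849258 and Ppbp at 18851954 to 18853315, build rn6).

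Gp5 codes for glycoprotein V, which joins the von Willebrand factor receptor on the platelet surface (chromosome 11, 73015387 to 73017090, rn6). In replicates 1 to 4 it had 31.2, 34.8, 28.4 and 33.8 CPM in coacervate-treated, 29.5, 21.6, 29.4 and 27.6 CPM in HA-treated, 28.1, 17.8, 18.8 and 16.9 CPM in osteoarthritic and 32.8, 29.7, 34.8 and 46.3 CPM in healthy cartilage. All 4 osteoarthritic libraries lay below all 4 healthy ones and all 4 coacervate-treated ones in CPM. The margin was small, with 28.1 CPM in osteoarthritic replicate 1 against 28.4 in coacervate-treated replicate 3. In FPKM (defined above) these libraries stood in the opposite order, at 14.99 and 14.26. The HA-treated libraries overlapped the osteoarthritic and coacervate-treated ones and lay below the healthy ones, with 29.5 against 29.7 CPM at the closest.

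Gp1ba codes for the alpha chain of that receptor, which binds von Willebrand factor (chromosome 10, 57260680 to 57263546). It had 82.6, 92.1, 91.8 and 94.0 CPM in coacervate-treated, 89.1, 62.1, 92.6 and 68.8 CPM in HA-treated, 67.7, 36.5, 41.7 and 59.6 CPM in osteoarthritic and 76.7, 72.5, 85.3 and 130.9 CPM in healthy cartilage. The osteoarthritic libraries were again below every healthy and every coacervate-treated library, and HA-treated replicate 2 lay within the osteoarthritic range. The coacervate-treated libraries were the most alike, with a mean of 90.1 ± 5.10 CPM, against 78.1 ± 15.0 in HA-treated, 51.4 ± 14.7 in osteoarthritic and 91.3 ± 26.9 in healthy cartilage (SD, n = 4 each).

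Itga2b codes for the alpha subunit of the platelet integrin that binds fibrinogen (chromosome 10, 90398132 to 90415070, minus strand). It had 336, 322, 341 and 343 CPM in coacervate-treated, 428, 296, 340 and 269 CPM in HA-treated, 315, 232, 207 and 222 CPM in osteoarthritic and 342, 335, 334 and 576 CPM in healthy cartilage. The osteoarthritic group lay below the healthy and coacervate-treated groups without overlap, by a small margin through osteoarthritic replicate 1. The HA-treated group overlapped all 3 others.

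Gp9 and Gp6 did not separate the groups. Gp9, the glycoprotein IX subunit of the same receptor (chromosome 4, 119680112 to 119682547), averaged 26.8 ± 3.87 CPM in coacervate-treated, 29.7 ± 3.24 in HA-treated, 27.2 ± 5.59 in osteoarthritic and 31.2 ± 10.1 in healthy cartilage (SD, n = 4 each). Gp6, a platelet receptor for collagen (chromosome 1, 73040901 to 73064641), had 55.0, 52.4, 41.0 and 51.2 CPM in coacervate-treated, 48.0, 46.5, 44.4 and 50.5 CPM in HA-treated, 36.6, 52.8, 61.0 and 31.8 CPM in osteoarthritic and 50.4, 51.1, 50.7 and 78.0 CPM in healthy cartilage. In CPM, osteoarthritic replicates 1 and 4 were the lowest Gp6 libraries of all. Replicates 2 and 3 of the same group lay above most others in CPM. In FPKM they had 14.6 and 17.7, against 11.4 to 26.1 over the 16 libraries.

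The granule chemokines split the osteoarthritic group in the same way. Pf4, platelet factor 4, had 140.6, 109.7, 106 and 111 CPM in coacervate-treated, 147, 141.6, 127 and 140.6 CPM in HA-treated, 104.5, 211, 215 and 89.8 CPM in osteoarthritic and 108, 122, 113 and 199 CPM in healthy cartilage. In CPM, osteoarthritic replicates 2 and 3 were the highest Pf4 libraries and replicates 1 and 4 the lowest. In FPKM healthy replicate 4 was the highest, at 535, against 468 and 500 in osteoarthritic replicates 2 and 3. Ppbp, the precursor of the chemokine also called neutrophil-activating peptide, had 374, 237, 238 and 258 CPM in coacervate-treated, 273, 302, 259 and 292 CPM in HA-treated, 199, 309.8, 376 and 194 CPM in osteoarthritic and 292, 307, 291 and 438 CPM in healthy cartilage. No pair of groups was separate for either chemokine.

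**Figure D1:**
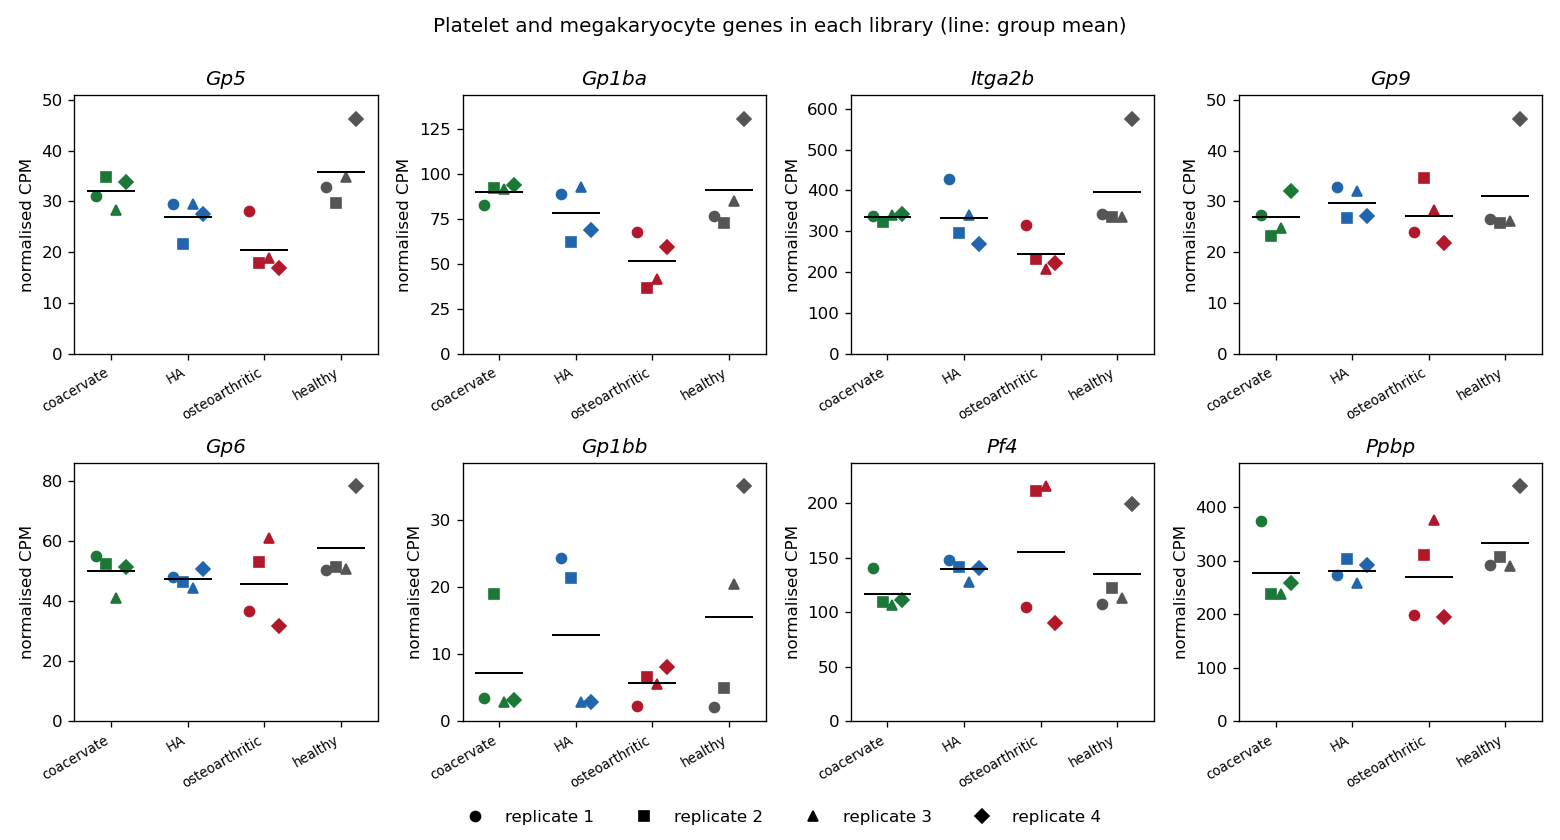
Normalised CPM (vertical axis, each panel from 0) of the 8 genes in the coacervate-treated, HA-treated, osteoarthritic and healthy libraries; symbols give the replicate and lines the group mean (n = 4). The osteoarthritic libraries lie below the healthy and coacervate-treated ones for Gp5, Gp1ba and Itga2b, and healthy replicate 4 is the highest of 16 for 7 of the 8 genes.

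Healthy replicate 4 was the highest of the 16 libraries in CPM for 7 of the 8 genes and ranked 3 for Pf4. Its levels were 1.43-fold (Gp5) to 3.82-fold (Gp1bb) the mean of the other 3 healthy libraries. Osteoarthritic replicate 4 was at the other end, the lowest of 16 in CPM for 5 of the 8 genes (Gp5, Gp9, Gp6, Pf4 and Ppbp). In bulk tissue, fewer platelets or megakaryocytes and less of the mRNA in each cannot be told apart.

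Between osteoarthritic and healthy cartilage, Gp5 was 1.76-fold lower, Gp1ba 1.78-fold lower and Itga2b 1.63-fold lower in the osteoarthritic group. The log2 fold changes were -0.81 ± 0.17 for Gp5, -0.83 ± 0.21 for Gp1ba and -0.70 ± 0.19 for Itga2b (edgeR, SE). Of the other 5, Gp6 (-0.34), Ppbp (-0.30), Gp9 (-0.20) and Gp1bb (-1.45 ± 0.89) were below 0, and Pf4 was above it at 0.19 ± 0.26. The median of the 8 was -0.52, beside 0.01 over all 14337 genes tested. Gp5 was the only member past the threshold (adjusted p = 0.0498, edgeR with Benjamini-Hochberg adjustment), and 0.502% of all tested genes were called. Groups did not overlap for 3 of the 8 (Gp5, Gp1ba and Itga2b, all lower in osteoarthritic cartilage), and for 6.33% of all genes (3.19% lower in osteoarthritic cartilage). Since this contrast was known when the genes were chosen, nothing is read from these counts.

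The Gp5 call lay at the threshold. It was lost in 24 of 29 alternatives, with adjusted p from 0.0017 to 0.234 and log2 fold changes from -0.999 to -0.667. Without healthy replicate 4 the adjusted p was 0.129, and without osteoarthritic replicates 2 and 3 it was 0.162. Without osteoarthritic replicate 1 it was 0.00702, and Gp1ba (0.0287) and Itga2b (0.0336) were then called too, when 7.83% of all genes were. DESeq2 called the same 3 genes, and 2.91% of all genes.

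A second row of the table was also annotated as glycoprotein V. It is named NEWGENE_2724 and lies on the same strand of chromosome 11 at 74014983 to 74018075 (rn6). Its level was 44.1, 48.9, 38.4 and 47.6 CPM in coacervate-treated, 45.2, 29.8, 43.7 and 38.0 CPM in HA-treated, 40.9, 27.4, 30.4 and 23.9 CPM in osteoarthritic and 45.5, 40.9, 49.0 and 67.9 CPM in healthy cartilage. It followed Gp5 closely, with a Pearson r of 0.98 over the 16 libraries, but its groups overlapped where those of Gp5 did not. In this row osteoarthritic replicate 1 (40.93 CPM) lay above healthy replicate 2 (40.91) and coacervate-treated replicate 3 (38.4). HA-treated replicate 1 (45.2 CPM) lay above healthy replicate 2 as well. Its osteoarthritic over healthy log2 fold change was -0.73 ± 0.19 (adjusted p = 0.0999, edgeR). How reads were divided between these rows is not given in the sources used here, so the Gp5 level is uncertain. With both rows summed, Gp5 had a log2 fold change of -0.76 and was no longer called (adjusted p = 0.0723, edgeR).

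The direction of Pf4 between osteoarthritic and healthy cartilage depended on osteoarthritic replicates 2 and 3. Ppbp was below 0 with or without these libraries. Without them the log2 fold changes were -0.48 for Pf4, which changed sign, -0.76 for Ppbp, -0.75 for Gp6 and -0.44 for Gp9. The values for the other surface receptors were then -0.67 for Gp5, -0.52 for Gp1ba, -0.56 for Itga2b and -1.58 for Gp1bb. All 8 genes were then below 0, with a median of -0.62, but none was called, when 1.14% of all genes were. Only osteoarthritic replicates 1 and 4 stood for the group in that fit. Without healthy replicate 4, the median was -0.31, and Gp9 (0.06) joined Pf4 (0.44) above 0.

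The balance of Pf4 and Ppbp mRNA to that of 3 of the glycoproteins (Gp5, Gp1ba and Itga2b) was compared with that of short to long genes, since Pf4 and Ppbp are short. Lengths implied by counts and FPKM put Pf4 at percentile 2.81 and Ppbp at 14.3 among 9429 genes, against 36.8 for Gp5, 62.9 for Gp1ba and 74.0 for Itga2b. Gp5, Gp1ba and Itga2b were singled out as low in the osteoarthritic libraries, so part of any gap there was set by their choice. The mean centred log2 level of Pf4 and Ppbp exceeded that of Gp5, Gp1ba and Itga2b by 1.11 and 1.23 in osteoarthritic replicates 2 and 3. In the other 14 libraries the difference was -0.48 to 0.34. These are also the libraries in which short genes, ribosomal protein genes (0.97 and 0.79 above their mean, against -0.39 to 0.14 elsewhere) and haemoglobin were high. Gp6, which was also high in them in CPM though not in FPKM, was not a short gene (percentile 60.4). Gp9 (percentile 35.7) had 34.6 and 28.2 CPM in osteoarthritic replicates 2 and 3, against 21.9 to 46.3 CPM over all 16 libraries. The part of transcript length or blood content in the split was not tested.

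**Figure D2:**
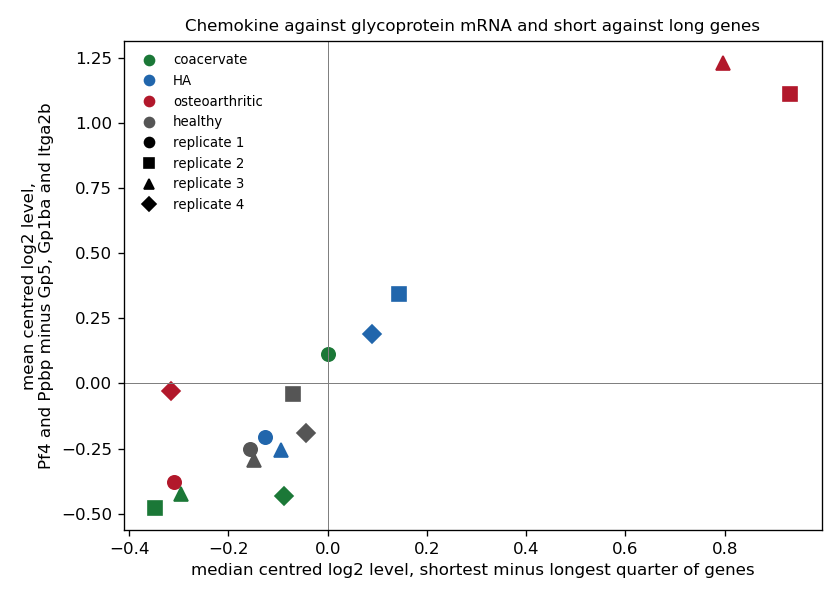
Each point is a library. The horizontal axis gives the median centred log2 level of the 2358 shortest minus the 2358 longest genes, and the vertical axis the mean centred log2 level of Pf4 and Ppbp minus that of Gp5, Gp1ba and Itga2b. Osteoarthritic replicates 2 and 3 (0.93 and 0.80 across, 1.11 and 1.23 up) lie apart from the other 14 libraries. Gp5, Gp1ba and Itga2b were singled out as low in the osteoarthritic libraries, so part of this gap was set by their choice.

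Correlations among the 8 genes are given for pairs grouped after their values were seen. With group means removed, Pearson's r over the 16 libraries was 0.76 between Gp5 and Gp1ba, 0.76 between Gp5 and Itga2b and 0.79 between Gp1ba and Itga2b. It was 0.93 between Pf4 and Ppbp, 0.95 between Pf4 and Gp6 and 0.90 between Ppbp and Gp6. Between these trios it was low, with 0.06 between Gp5 and Pf4 and -0.31 between Gp1ba and Ppbp. These are descriptions of libraries that share scaling and the 3 extreme libraries.

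The low values between the trios depended on which of the extreme libraries were kept. Without osteoarthritic replicates 2 and 3, r over 14 libraries was 0.54 between Gp5 and Pf4, 0.57 between Gp1ba and Pf4, 0.73 between Itga2b and Pf4, 0.68 between Gp5 and Gp6 and 0.63 between Itga2b and Gp6. With Ppbp it stayed lower, at 0.25 for Gp5, 0.24 for Gp1ba and 0.42 for Itga2b, and Gp1ba had 0.57 with Gp6. Without healthy replicate 4 as well, the pairs named first had 0.17, -0.27, 0.28, 0.49 and 0.09 over 13 libraries. Those with Ppbp had -0.16, -0.51 and -0.11, and Gp1ba had -0.15 with Gp6. Within the trio of Gp5, Gp1ba and Itga2b the values were then 0.67, 0.62 and 0.68, and within that of Pf4, Ppbp and Gp6 they were 0.85, 0.68 and 0.55, in the same order as above. Gp9 had an r of 0.75 with Pf4 over 16 libraries but 0.15 over those 13, in which it was 0.45 with Gp5, 0.58 with Gp1ba and 0.62 with Itga2b. Gp1bb had an r from 0.06 to 0.31 with the other 7 over the 16 libraries.

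**Figure D3:**
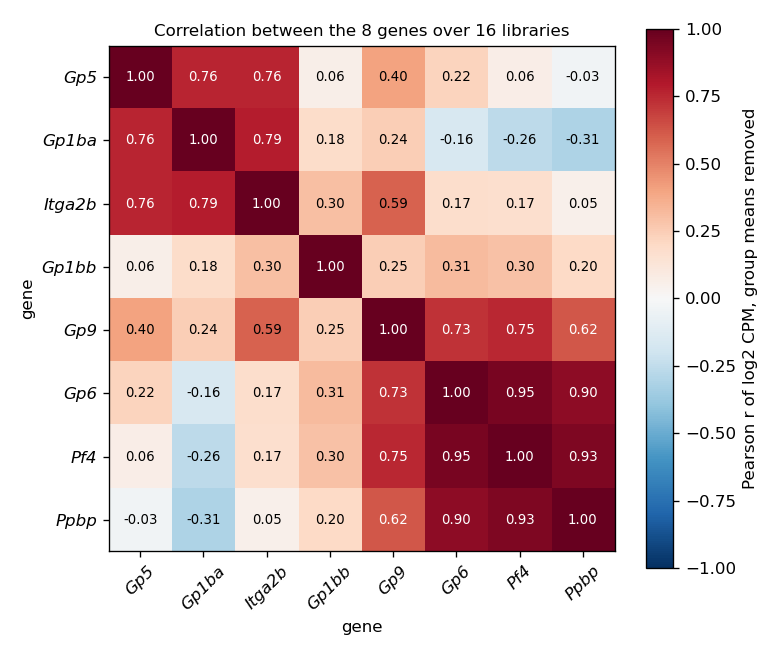
Pearson correlation of log2 CPM between the 8 genes over the 16 libraries, after removal of each group's mean; colour runs from -1 to 1 and each cell prints its value. Gp5, Gp1ba and Itga2b have 0.76 to 0.79 among themselves, and Gp6, Pf4 and Ppbp 0.90 to 0.95; the low values between these trios are higher without osteoarthritic replicates 2 and 3.

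Gp1bb, the beta chain of the von Willebrand factor receptor, has a count here that could not be separated from that of a neighbour. It lies almost wholly within Septin5 on the same strand of chromosome 11 (Gp1bb at 86520992 to 86522169, rn6), and a stranded library cannot separate such a pair by strand. Its counts fell into 2 levels. They were 792 to 1635 in 5 libraries (coacervate-treated replicate 2, HA-treated replicates 1 and 2 and healthy replicates 3 and 4) and 100 to 375 in the other 11. The share of the summed Gp1bb and Septin5 counts given to Gp1bb was 13.7% to 17.0% in the first 5 and 1.53% to 6.67% in the rest.

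Gp1bb thus supplied 1.53% to 17.0% of the summed counts, so the sum follows Septin5 and says little of Gp1bb. The sum averaged 133 ± 5.91 CPM in coacervate-treated, 154 ± 16.9 in HA-treated, 159.6 ± 37.5 in osteoarthritic and 158 ± 32.4 in healthy cartilage (SD, n = 4 each). The osteoarthritic over healthy log2 fold change was -1.45 for Gp1bb alone, 0.11 for Septin5 alone and 0.02 ± 0.16 for the sum. The high level occurred in 3 of the 4 groups and the low level in all 4, and how reads were shared between the genes was not tested.

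**Figure D4:**
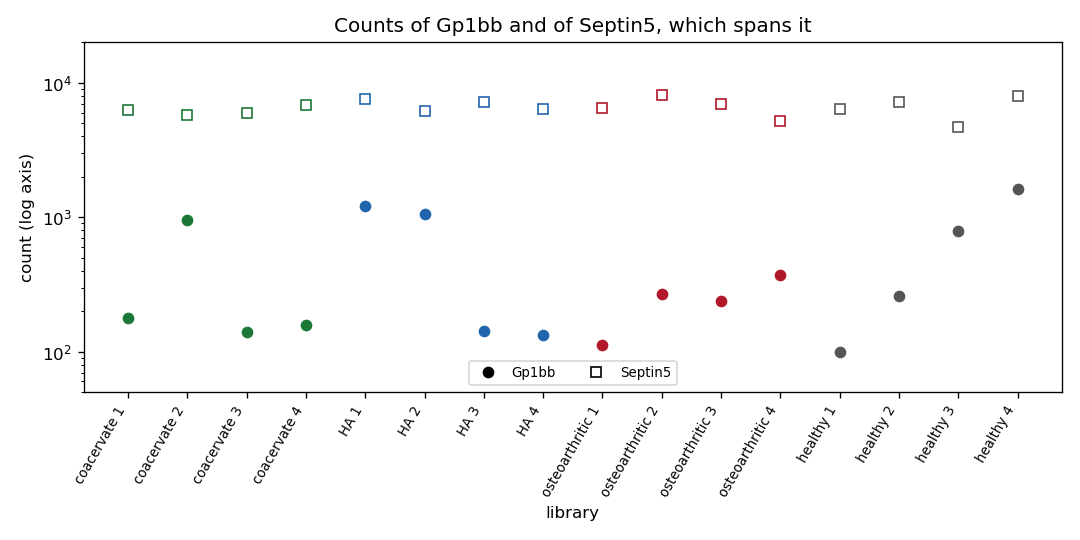
Deposited counts (log axis) of Gp1bb (filled circles) and Septin5 (open squares) in each library, by group. Septin5 runs from 4720 to 8092, whereas Gp1bb is at 792 to 1635 in 5 libraries and 100 to 375 in the other 11.

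Each treated group was compared with the osteoarthritic group, and these comparisons share the 4 osteoarthritic libraries with the one above. Gp5, Gp1ba and Itga2b were singled out as low in those same libraries, so their values over them are given as a description. In coacervate-treated cartilage Gp1ba was 1.75-fold (log2 0.81 ± 0.21), Gp5 1.57-fold (0.65 ± 0.17) and Itga2b 1.38-fold (0.46 ± 0.19) the osteoarthritic level. None of the 8 genes passed (adjusted p = 0.103, 0.103 and 0.188 for these 3, edgeR), when 0.146% of all genes did. At an unadjusted p under 0.05 there were 3 of 8, beside 21.8% of all genes. Groups did not overlap in CPM for 3 of the 8, all higher in coacervate-treated cartilage, and for 5.6% of all genes (2.47% in that direction). For Gp5 this did not hold in FPKM.

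Calls in this comparison depended on the tool and on single libraries. DESeq2 called Gp1ba (adjusted p = 0.0135) and Gp5 (0.018), and 5.91% of all genes. Without osteoarthritic replicate 1, edgeR called Gp5 (adjusted p = 0.0143), Gp1ba (0.0226) and Itga2b (0.0486), when 14.3% of all genes were called. Without osteoarthritic replicate 4 it called Gp1ba alone (adjusted p = 0.0387), when 9.54% of all genes were called. The chemokines lay near or below 0, with log2 fold changes of -0.41 ± 0.26 for Pf4 and 0.04 ± 0.21 for Ppbp. Without osteoarthritic replicates 2 and 3 these were 0.27 and 0.49, and Gp1ba was at 0.50; all 8 were then above 0 (median 0.48) and none was called.

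In HA-treated cartilage, Gp1ba was 1.52-fold (log2 0.60 ± 0.21), Itga2b 1.36-fold (0.45 ± 0.19) and Gp5 1.32-fold (0.40 ± 0.17) the osteoarthritic level. None of the 8 genes passed (smallest adjusted p = 0.745, edgeR), and none of the tested genes did (0%). At an unadjusted p under 0.05 there were 3 of 8, beside 6.34% of all genes, and DESeq2 called none of the 8 and 0.0559% of all genes. No member was separate between these groups, where 1.9% of all genes were. Pf4 stood at -0.16 ± 0.26 and Ppbp at 0.06 ± 0.21. Without osteoarthritic replicates 2 and 3, Pf4 changed sign to 0.52, and the values were 0.52 for Ppbp, 0.47 for Gp6 and 0.30 for Gp1ba. All 8 were then above 0, with a median of 0.42, and none was called.

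**Figure D5:**
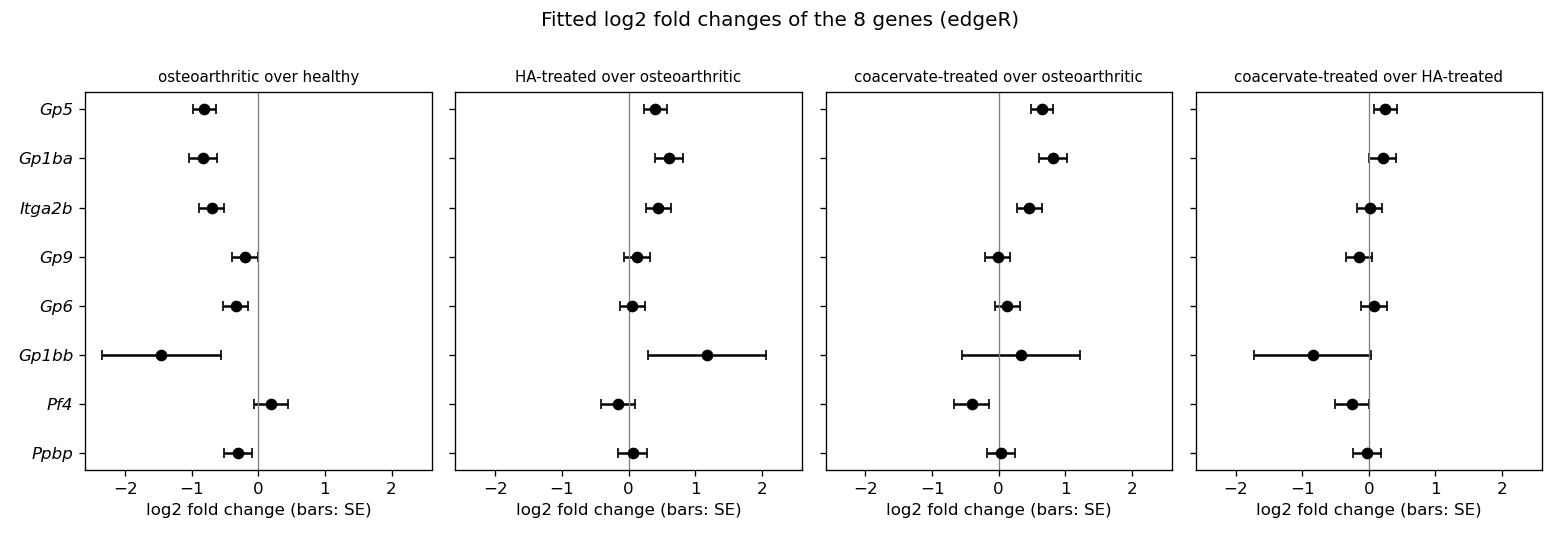
Log2 fold changes (points, edgeR) with their SE (bars) for the 8 genes in 4 comparisons with 4 libraries a group. Gp5, Gp1ba and Itga2b lie left of 0 for osteoarthritic over healthy (-0.83 to -0.70) and right of 0 for each treated group over osteoarthritic, which reuses the osteoarthritic libraries in which these genes were picked as low; the coacervate-treated over HA-treated panel is centred near 0.

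The carriers were compared directly, through the difference between their own 8 libraries, with the spread estimated over all 16. Group ranges overlapped for all 8 genes, with 32.0 ± 2.89 CPM of Gp5 in coacervate-treated and 27.0 ± 3.74 in HA-treated cartilage, and 117 ± 15.9 CPM of Pf4 in coacervate-treated and 139 ± 8.50 in HA-treated cartilage (SD, n = 4 each). Of the 8 genes, 0 passed (smallest adjusted p = 0.698, for Gp5, edgeR), as did 0% of all genes. At an unadjusted p under 0.05 there were 0 of 8, beside 10.4% of all genes, and DESeq2 called 0 of the 8 but 2.31% of all genes. No member was separate between the groups, where 9.71% of all genes were.

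For coacervate-treated over HA-treated, the log2 fold change was 0.25 for Gp5 (95% interval -0.12 to 0.61), 0.21 for Gp1ba (-0.24 to 0.65) and 0.01 for Itga2b (-0.39 to 0.41). It was 0.08 for Gp6 (-0.33 to 0.48) and -0.15 for Gp9 (-0.56 to 0.26). Among the chemokines it was -0.25 for Pf4 (-0.80 to 0.29) and -0.02 for Ppbp (-0.48 to 0.43). For Gp1bb, the count of which could not be separated from Septin5, it was -0.84 (-2.71 to 1.02). These intervals rest on the spread over all 16 libraries. The SE was 0.26 for Pf4, against 0.16 without osteoarthritic replicates 2 and 3. In a fit of the 8 libraries alone it was 0.14 for Itga2b and 0.15 for Ppbp, against 0.19 and 0.21. Without osteoarthritic replicates 2 and 3, 149 of all genes were called, but none of the 8.

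Against healthy cartilage, no gene of the 8 passed in either treated group. Both comparisons share the 4 healthy libraries with the contrast that was known when the genes were chosen. Their values are therefore given as a description. In coacervate-treated cartilage all 8 log2 fold changes were below 0, from -1.12 (Gp1bb) to -0.02 (Gp1ba), with a median of -0.21, beside 48.9% of all genes below 0. With healthy replicate 4 left out, 5 were below 0 and 3 above, with a median of -0.01. Some signs depended on the setting: Gp1ba kept its sign in 26 of 29, Gp9 in 28 and Pf4 in 28. In edgeR 0% of all genes passed, and DESeq2 called none of the 8 and 0.105% of all genes. An unadjusted p under 0.05 was reached by 0 of 8, beside 3.85% of all genes, and no member was separate, beside 3.66% of all genes. In HA-treated cartilage 7 of 8 were below 0, with a median of -0.25, beside 49.6% of all genes. Leaving out healthy replicate 4 put 5 below 0 and 3 above, with a median of -0.009. In edgeR 0.16% of all genes passed, DESeq2 called none of the 8 and 1.1% of all genes, and 1 of 8 had an unadjusted p under 0.05, beside 8.25% of all genes. That gene, Gp5, was at -0.41 ± 0.17 and was the only member whose groups did not overlap, against 4.76% of all genes lower in that way. Without healthy replicate 4 it was at -0.26 (adjusted p = 0.91, edgeR).

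Other platelet genes were described by lists that, like the 8, were chosen with earlier results known. Between osteoarthritic and healthy cartilage, 13 of 15 other receptor genes were below 0 (median -0.31), as were 8 of 10 granule and secreted protein genes (-0.36) and 15 of 19 cytoskeleton and signalling genes (-0.27). Of 14 transcription factor genes of megakaryocytes, 8 were below 0 (-0.04), near the 47.9% of all genes. No gene of the 4 lists passed in edgeR. At an unadjusted p under 0.05 there were 7 receptor, 5 granule, 9 cytoskeleton and 4 transcription factor genes, beside 17.8% of all genes. DESeq2 called 1 granule gene and 1 transcription factor gene, beside 2.91% of all genes. Without osteoarthritic replicate 1, edgeR called 3 receptor, 2 granule, 2 cytoskeleton and signalling and 1 transcription factor gene, when 7.83% of all genes were called.

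Without healthy replicate 4, the medians were -0.19 for receptors, -0.20 for granule proteins, -0.18 for cytoskeleton and signalling and 0.03 for transcription factors. Without osteoarthritic replicates 2 and 3 they were -0.25, -0.21, -0.18 and -0.09. In coacervate-treated against osteoarthritic cartilage, which shares libraries with the above, the medians were 0.17, 0.21, 0.10 and 0.14. In HA-treated against osteoarthritic cartilage they were 0.16, 0.18, 0.18 and -0.01. Between coacervate-treated and HA-treated cartilage they were 0.03, 0.004, -0.07 and 0.06. No gene of these lists passed in edgeR in any of the 3 comparisons with all libraries. In coacervate-treated against osteoarthritic cartilage, DESeq2 called 1 cytoskeleton and signalling and 2 transcription factor genes, beside 5.91% of all genes. Without osteoarthritic replicate 1, edgeR called 4 receptor, 4 granule, 2 cytoskeleton and signalling and 3 transcription factor genes there, when 14.3% of all genes were called. Without osteoarthritic replicate 4 it called 1 receptor and 2 transcription factor genes there, when 9.54% of all genes were called.

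Genes with the pattern most like the mean of the 8, by Pearson's r over 16 libraries, were Bin2 (r = 0.92), Ptgs1 (0.85), P2rx1 (0.83), Fgl2 (0.83) and Rbpms2 (0.83). That mean includes Gp1bb, the count of which could not be separated from Septin5. Gp1bb varied 16.4-fold in CPM over the 16 libraries, against 2.12-fold (Gp9) to 3.59-fold (Gp1ba) for the other members. Ptgs1 codes for the cyclooxygenase that makes the thromboxane precursor in platelets, and P2rx1 for an ATP-gated channel of platelets. Ptgs1 stood at a log2 fold change of -0.31 ± 0.12 and P2rx1 at -0.31 ± 0.12 in osteoarthritic over healthy cartilage, and neither passed (adjusted p = 0.219 and 0.217, edgeR). Besides NEWGENE_2724, the genes most like Gp5 were AABR07030544.1 (r = 0.92), Tubb1 (0.91), Adgrg1 (0.89) and Pip5k1a (0.88). Tubb1, the beta-tubulin of the platelet's marginal band, stood at -0.64 ± 0.19 (adjusted p = 0.163, edgeR). These correlations share scaling, depth and the extreme libraries.

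Markers of other cells are given beside these results, and none of their genes passed in edgeR in the comparisons given here. Of 8 B lineage genes, 7 were below 0 in osteoarthritic over healthy cartilage (median -0.69), with a sum of 211 to 370 CPM in osteoarthritic and 281 to 568 CPM in healthy libraries. Of 9 neutrophil genes tested, 8 were above 0 (median 0.40). Among osteoarthritic libraries, the sum of the 10 neutrophil genes listed, which adds the untested Ltf, was high in replicates 2 and 3 only (21233 and 14092 CPM). Replicates 1 and 4 had 6837 and 8840 CPM, against 7775 to 9560 CPM in healthy libraries. Of 7 red cell precursor genes, 5 were above 0 (median 0.18), with a sum of 6085 to 6558 CPM in osteoarthritic and 5281 to 7331 CPM in healthy libraries. Of 5 skeletal muscle genes, 4 were below 0 (median -0.53), with a sum of 3207 to 5331 CPM in osteoarthritic and 5059 to 8144 CPM in healthy libraries. Of 9 cartilage cell genes, 7 were above 0 (median 0.11). Below 0 were 5 of 7 stem and progenitor genes (-0.06) and 4 of 5 endothelial genes (-0.14). The same held for 5 of 6 mast cell genes (-0.23) and 6 of 10 macrophage genes (-0.01).

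In coacervate-treated over osteoarthritic cartilage, all 5 skeletal muscle genes were above 0 (median 0.9997), as were 6992 of all 14337 genes. Their sum was 5091 to 18140 CPM in coacervate-treated and 3207 to 5331 CPM in osteoarthritic libraries. It was high in coacervate-treated replicates 3 and 2 (18140 and 8563 CPM), whereas replicates 1 and 4 (5154 and 5091 CPM) lay within the osteoarthritic range. Of the B lineage genes 7 of 8 were above 0 (median 0.57), with a sum of 349 to 491 CPM in coacervate-treated and 211 to 370 CPM in osteoarthritic libraries. Of the neutrophil genes tested, 8 of 9 were below 0 (median -0.72) and 8 had an unadjusted p under 0.05. The 10 listed had a sum of 5481 to 7613 CPM in coacervate-treated and 6837 to 21233 CPM in osteoarthritic libraries. Above 0 were 7 of 7 stem and progenitor genes (median 0.28), 4 of 5 endothelial genes (0.23) and 5 of 7 red cell precursor genes (0.01). Below 0 were 7 of 9 cartilage cell genes (-0.28), 4 of 6 mast cell genes (-0.11) and 6 of 10 macrophage genes (-0.04). The part of marrow, blood or muscle content in the levels of the 8 genes was not tested.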

How the data were processed

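Per the labels' protocols, RNA with a RIN over 7 was enriched for mRNA on oligo(dT) beads, made into dUTP-stranded libraries and read from both ends. Build rn6, HISAT2 2.2.1, cutadapt 1.9, edgeR, StringTie 2.1.6 and DESeq2 are named in the submitters' processing notes. The counter, annotation version and strand setting are not given in the sources used here. Per the file headers, the deposited table holds a whole-number count, not normalised by the authors, and the authors' FPKM value for each gene and library.

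The 14337 genes that reached an FPKM of 1 in 4 or more libraries were tested with edgeR 4.0.16 (quasi-likelihood test, TMM, 1 fit of 4 group means). P-values were adjusted over all of them by Benjamini-Hochberg with a threshold of 0.05. Log2 levels used a prior count of 2. FPKM was used to compare genes and in limma 3.58.1 (pseudocounts 1 and 0.1). DESeq2 1.42.0, other scalings and filters, a replicate block and leaving out libraries were alternatives. The summed Gp1bb and Septin5 counts, and the summed Gp5 and NEWGENE_2724 counts, were alternatives chosen after seeing the data. R 4.3.3 and python 3.11.15 were used. The procedure was also run on simulated counts, without the excess of short genes seen in osteoarthritic replicates 2 and 3. Its recovery rates are not given here. The labels mention no molecular identifiers, so counts may include PCR copies.

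The 8 genes and the lists were chosen with earlier results of these data known. Named genes were the 8 members and the 5 genes most correlated with their mean and with Gp5; NEWGENE_2724 and Septin5 were followed further because of their annotation and position.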

Additional observations from a re-analysis of the deposited data

Results flagged for a closer look

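In 8 of the 32 combinations of a gene and a group, a library lay far from the other 3, judged by the gap to its nearest neighbour as a ratio of the group's whole range (Dixon's test at its 95% critical value). Chance flags about 1 in 20 groups, and these 8 are not independent because 5 of them are the same library.

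Healthy replicate 4 was the high library for 5 genes. For Gp6 it had 78.0 CPM, against 50.4 to 51.1 CPM in the other healthy libraries (ratio 0.972). For Itga2b it had 576 CPM, against 334 to 342 CPM (0.970). For Gp9 it had 46.3 CPM, against 25.7 to 26.5 CPM (0.958). For Ppbp it had 438 CPM, against 291 to 307 CPM (0.887). For Pf4 it had 199 CPM, against 108 to 122 CPM (0.846).

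Coacervate-treated replicate 1 was the high library for both chemokines. It had 140.6 CPM of Pf4, against 106 to 111 CPM in the other coacervate-treated libraries (0.853), and 374 CPM of Ppbp, against 237 to 258 CPM (0.850).

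Coacervate-treated replicate 2 had 19.0 CPM of Gp1bb, against 2.97 to 3.52 CPM in the other coacervate-treated libraries (0.966).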

How the results depend on the processing

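Limma moved the median of all genes in osteoarthritic over healthy to -0.11 and -0.13 (pseudocounts 1 and 0.1), against 0.01, and total counts to -0.08, so the genes' values there are read against that shift. Besides the main 72 genes called in osteoarthritic over healthy, there were 29 with total counts, 45 without a filter, 417 with DESeq2, 10 and 12 with limma (pseudocounts 1 and 0.1), 8 from the 8 libraries alone, and 164 without osteoarthritic replicates 2 and 3; leaving out each library gave 15 (without healthy replicate 2 or 4) to 1122 (without osteoarthritic replicate 1). For coacervate-treated over osteoarthritic (21) these were 0, 0, 797, 0 and 1, 0 and 3, with 0 under edgeR's filterByExpr and 0 to 2054 with a library left out. For HA-treated over healthy (23), there were 7 without a filter, 158 with DESeq2, 9 and 2 with limma, 390 from 8 libraries, 94 without osteoarthritic replicates 2 and 3, and 0 to 37. From a main count of 0, coacervate-treated over HA-treated had 325 with DESeq2, 149 without osteoarthritic replicates 2 and 3, and 0 to 11 with a library left out. HA-treated over osteoarthritic had 8 with DESeq2, 1 and 1 with limma, and 0 to 1. Coacervate-treated over healthy had 15 with DESeq2 and 0 to 1.

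Of the 8 genes, 1 was called in osteoarthritic over healthy. The count was 3 with DESeq2, 1 with Septin5 summed, 0 in each of the other 11 alternatives that left out no single library, and 0 to 3 with a library left out. In coacervate-treated over osteoarthritic it was 2 with DESeq2 and 0 to 3 with a library left out, against 0.

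Signs reversed in coacervate-treated over HA-treated, where both values lay near 0. Itga2b (0.01) was -0.0354 with total counts, -0.000993 and -0.000772 with limma, and -0.0781 to 0.159 with a library left out. Ppbp (-0.02) ranged from -0.200 to 0.0431 with a library left out. The cause was not tested.

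Replicate numbers did not pair the libraries: same-numbered libraries correlated at -0.39 to 0.21 over 24 pairs, others at -0.31 to 0.35 over 72, and 1 library correlated best with its own number. With the replicate block, 26 genes were called in osteoarthritic over healthy, 0 in coacervate-treated over osteoarthritic and 0 in HA-treated over healthy, and Gp5 had an adjusted p of 0.0948.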
